A study of Mus musculus with 6 samples.

Results

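Cdc42 is a small GTPase that controls the cytoskeleton, and the Borg proteins Cdc42ep1 to Cdc42ep5 are effectors that bind it in its active form. The family was taken as the 6 rows of the count table whose symbol is Cdc42, Cdc42ep1, Cdc42ep2, Cdc42ep3, Cdc42ep4 or Cdc42ep5, of 24411 genes in all. It was proposed with the difference of Cdc42ep5 between the lines already known, so the values of the 6 members between the lines are given as a description, with no test. UV2, also written UV♀2 in the labels, is a mouse endothelial line whose strain is (BALB/c x C57BL/6)F1. bEnd.3 is a mouse brain endothelial line transformed with the middle T antigen of polyomavirus, of strain BALB/c. There were 3 bulk RNA-seq libraries of each line, from confluent cultures on 10-cm dishes that were then washed and left without serum for 3 days. Both are established lines, so strain, origin, sex chromosomes and transformation all differ or may differ between them and cannot be told apart from each other in this comparison. No label states that replicate libraries were grown as separate cultures, and p-values therefore measure only the spread between these libraries, which may be technical.

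Cdc42 cycles between a GTP-bound form, which binds effectors, and a GDP-bound form. Guanine nucleotide exchange factors (GEFs) switch it on, GTPase-activating proteins (GAPs) switch it off, and GDP dissociation inhibitors (GDIs) hold it in the cytosol. It is known for its part in cell polarity, filopodia and actin assembly, and in endothelial cells for its part in lumen formation and junctions. Borg proteins bind active Cdc42 through a short Cdc42/Rac interactive binding (CRIB) motif and bind septins, GTP-binding proteins that assemble into filaments, through a separate Borg homology domain.

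The CRIB motif is what makes the 5 Borg genes effectors of Cdc42, so its coding sequence is shown for each, read 5′ to 3′ on the coding strand of the GENCODE M21 transcript. Capitals mark the codons of the places that the CRIB pattern fixes, and lower case marks the rest. In the RefSeq names, Cdc42ep1 is also Borg5, Cdc42ep2 is Borg1, Cdc42ep3 is Borg2, Cdc42ep4 is Borg4 and Cdc42ep5 is Borg3.
Cdc42ep1: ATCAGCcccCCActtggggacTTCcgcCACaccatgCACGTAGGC
Cdc42ep2: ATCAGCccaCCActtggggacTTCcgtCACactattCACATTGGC
Cdc42ep3: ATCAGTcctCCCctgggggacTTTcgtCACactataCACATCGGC
Cdc42ep4: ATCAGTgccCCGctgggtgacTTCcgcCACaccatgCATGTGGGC
Cdc42ep5: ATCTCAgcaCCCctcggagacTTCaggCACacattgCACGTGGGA
On GRCm38, these stretches lie at chr15:78847468-78847512 on the plus strand for Cdc42ep1, and on the minus strand at chr19:5918544-5918588 for Cdc42ep2 and chr17:79335355-79335399 for Cdc42ep3. Those of Cdc42ep4 and Cdc42ep5 lie on the minus strand at chr11:113729441-113729485 and chr7:4151677-4151721.

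All 5 stretches lie in the first part of the protein, starting at codon 23 of 150 in Cdc42ep5 and at codon 38 of 409 in Cdc42ep1. The 15 encoded residues were identical in Cdc42ep2 and Cdc42ep3, and 14 of 15 were shared by Cdc42ep1 and Cdc42ep4 and by Cdc42ep4 and Cdc42ep5. At the level of bases, between 29 of 45 (Cdc42ep3 and Cdc42ep5) and 39 of 45 (Cdc42ep1 and Cdc42ep2) were identical. Over whole proteins the members were far less alike, with 18.9% identical aligned positions for Cdc42ep1 and Cdc42ep3 and 40.7% for Cdc42ep2 and Cdc42ep3. The same pattern was present in 13 of 21924 protein-coding genes (0.0593%). The other 8 were the kinases Pak1, Pak2, Pak3 and Cdc42bpg, the actin nucleation promoters Was and Wasl, and the small Cdc42 effectors Cdc42se1 and Cdc42se2. The pattern was widened after the Borg sequences had been seen, so that it takes either residue found at the place before the last. Pak4, Cdc42bpa, Cdc42bpb and Tnk2, which are among the other Cdc42 effectors described further on, had no match. The 13 genes are therefore matches to this pattern and not a count of all CRIB proteins.

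The 6 genes lie on 6 chromosomes, so no pair of them is linked. On GRCm38, RefSeq places Cdc42 at chr4:137319696-137357759 on the minus strand, with 6 exons, 5 of them coding. Cdc42ep1 lies at chr15:78842647-78850902 on the plus strand and has 3 exons, 2 of them coding. The other Borg genes have the whole coding sequence in a single exon and lie on the minus strand, Cdc42ep2 at chr19:5917556-5924816, Cdc42ep3 at chr17:79333723-79355091, Cdc42ep4 at chr11:113726850-113752543 and Cdc42ep5 at chr7:4151260-4164831. An annotated gene on the opposite strand overlaps Cdc42 (Gm25772), Cdc42ep1 (Lgals2) and Cdc42ep3 (Gm17315). Of these, Lgals2 has a row in the table, with 33 counts over the UV2 libraries and 50 over the bEnd.3 libraries, against 18003 and 21313 for Cdc42ep1, and the other overlapping genes were not analysed here. Nothing annotated overlaps Cdc42ep2, Cdc42ep4 or Cdc42ep5.

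Libraries held 21306441 to 28748128 expected counts. Both lines carried endothelial transcripts: all 8 endothelial markers, Pecam1 and Cdh5 among them, were present in each line, and together they came to 10885 to 12468 CPM, counts scaled to the size of the library, in UV2 and 10659 to 11114 CPM in bEnd.3. The 5 mural markers together came to 3.05 to 5.58 CPM in UV2 and 0.407 to 0.448 CPM in bEnd.3, the 5 fibroblast markers to 7.90 to 16.4 CPM and 1.57 to 2.85 CPM, and the 5 epithelial markers to 0.127 to 0.501 CPM and 0 to 0.163 CPM. The leukocyte markers came to 252 to 343 CPM in UV2 and 89.0 to 158 CPM in bEnd.3, nearly all from Cd68. The defining markers Adgre1 and Cd3e were at 0 in both lines, and Ptprc was also at 0 in UV2. The 5 markers of neurons and glia came to 2.96 to 3.68 CPM in UV2 and 0.314 to 0.713 CPM in bEnd.3. The part of these marker differences in the results below was not tested. Over the whole table, 12720 genes had counts high enough to test and 8538 of them (67.1%) differed between the lines at an adjusted p under 0.05 in edgeR's quasi-likelihood test. For 73.2% of tested genes no UV2 library lay within the range of bEnd.3 or the reverse. The median log2 fold change of tested genes, UV2 minus bEnd.3, was -0.01, with quartiles of -0.48 and 0.53. In bulk RNA, fewer cells with a transcript and less of it per cell cannot be told apart.

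All 6 members passed the filter on low counts. In the fit over all genes, 5 of the 6, all but Cdc42ep1, were past the adjusted p, beside 67.1% of all tested genes, and nothing is read from this count since the family was chosen on this contrast. With libraries scaled by total counts, all 6 were past it, beside 8634 of the 12720 tested genes. Nothing is read from that count either. For all 6 the UV2 libraries were separate from the bEnd.3 libraries, beside 73.2% of tested genes. All UV2 libraries were higher for 2 members, Cdc42 and Cdc42ep4, beside 36.5% of tested genes, and lower for the other 4, beside 36.8%. The size of each difference is given below, member by member.

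**Figure D1:**
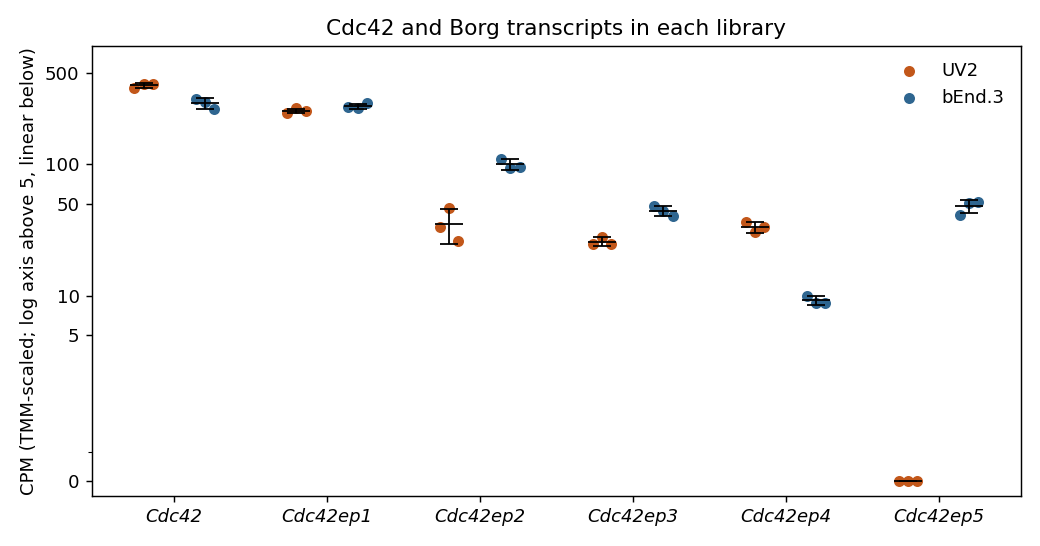
CPM of each member (y axis, logarithmic above 5 and linear below) in each UV2 and bEnd.3 library, 1 point a library, with the line's mean as a long bar and its SD as whiskers (n = 3). Cdc42ep5 sits at 0 in all 3 UV2 libraries and between 41.5 and 51.4 CPM in bEnd.3, and Cdc42ep4 is the Borg gene with its UV2 points above those of bEnd.3.

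Cdc42, the GTPase itself, was modestly higher in UV2. Its level was 383, 413 and 411 CPM in the UV2 libraries and 315, 299 and 263 CPM in the bEnd.3 libraries. The lowest UV2 library stood above the highest bEnd.3 library, and the line means were 402 ± 16.8 CPM and 292 ± 26.5 CPM (SD, n = 3 each). The log2 fold change was 0.46 (SE 0.08), or 1.38-fold higher in UV2, and 53.1% of tested genes had a larger one in either direction.

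Cdc42ep1, a Borg known from endothelial and other cells to bind septins and organise actin, had the highest level per kilobase of the Borg genes in both lines, given further on. In CPM it reached 248, 267 and 256 CPM in UV2 and 273, 269.5 and 292 CPM in bEnd.3. The libraries were separate but by a narrow margin, with the highest UV2 library just under the lowest bEnd.3 library. The means were 257 ± 9.64 CPM in UV2 and 278 ± 11.9 CPM in bEnd.3 (SD, n = 3 each), a log2 fold change of -0.12 (SE 0.07). Cdc42ep1 thus had nearly the same level in both lines, and 86.0% of tested genes had a larger change in either direction.

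Cdc42ep2 and Cdc42ep3, which carry the same CRIB residues, were both lower in UV2. Cdc42ep2 had 33.2, 46.5 and 25.9 CPM in UV2 and 111, 93.7 and 96.0 CPM in bEnd.3. Its log2 fold change was -1.51 (SE 0.19), or 2.85-fold lower in UV2. In UV2 it varied more than any other member, with a coefficient of variation of 29.6% and replicate 2 above the other libraries. In bEnd.3 its coefficient was 9.27%, below the 11.6% of Cdc42ep5. Cdc42ep3 had 24.8, 28.1 and 24.6 CPM in UV2 and 48.3, 43.8 and 40.6 CPM in bEnd.3. Its log2 fold change was -0.78 (SE 0.10), or 1.71-fold lower in UV2. For each of these genes the lowest bEnd.3 library was well above the highest UV2 library.

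Cdc42ep4, which in other cells has been found with septins, was the only Borg gene higher in UV2. It had 36.6, 30.3 and 33.3 CPM in UV2 and 10.0, 8.75 and 8.86 CPM in bEnd.3. The log2 fold change was 1.86 (SE 0.11), or 3.64-fold higher in UV2. The lowest UV2 library was far above the highest bEnd.3 library.

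Cdc42ep5, known in other cells to regulate septin filaments and actomyosin contractility, was not detected in UV2. It had 0 counts in each of the 3 UV2 libraries and 925, 1248 and 1513 counts in bEnd.3, which are 41.5, 50.8 and 51.4 CPM. Its mean in bEnd.3 was 47.9 ± 5.55 CPM (SD, n = 3). Against a floor of 3 counts over the 3 UV2 libraries, or 0.0427 CPM, it was at least 1121-fold lower in UV2, a log2 bound of -10.13. Floors and counting intervals cover counting error only, since reads without molecular identifiers are not independent molecules. Of the 12720 tested genes, 64 had 0 counts in all UV2 libraries, and Cdc42ep5 ranked 4 among them by CPM in bEnd.3, after Pcdh17, Mn1 and Inhbb. In the other direction, 97 tested genes had 0 counts in all bEnd.3 libraries.

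Levels of different genes were compared per kilobase of the principal GENCODE transcript, which is 2108 bases for Cdc42, 2560 for Cdc42ep1, 3411 for Cdc42ep2, 2265 for Cdc42ep3, 3405 for Cdc42ep4 and 1025 for Cdc42ep5. In UV2 the order of levels was Cdc42 at 191 ± 7.96 CPM per kilobase, Cdc42ep1 at 100.3 ± 3.77, Cdc42ep3 at 11.4 ± 0.871, Cdc42ep2 at 10.3 ± 3.06 and Cdc42ep4 at 9.82 ± 0.924, with Cdc42ep5 at 0 (SD, n = 3). Cdc42ep2, Cdc42ep3 and Cdc42ep4 overlapped in their UV2 libraries, with ranges of 7.61 to 13.6, 10.9 to 12.4 and 8.91 to 10.8 CPM per kilobase, so the order among these 3 is not beyond their spread. In bEnd.3 the order was Cdc42 at 139 ± 12.6 CPM per kilobase, Cdc42ep1 at 109 ± 4.65, Cdc42ep5 at 46.7 ± 5.41, Cdc42ep2 at 29.4 ± 2.72, Cdc42ep3 at 19.5 ± 1.72 and Cdc42ep4 at 2.70 ± 0.203 (SD, n = 3). No neighbours in the bEnd.3 order overlapped in their libraries. The top of that order depends on the length used: with all annotated exons of each gene joined, Cdc42ep1 stood above Cdc42 in bEnd.3.

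Cdc42 and Cdc42ep1 were abundant transcripts in both lines. Among 12241 tested genes with a length, 97.4% had a lower level per kilobase than Cdc42 in UV2 and 96.6% in bEnd.3, and for Cdc42ep1 the shares were 94.5% and 95.4%. Cdc42ep5, in contrast, stood above no tested gene in UV2 and above 87.0% of them in bEnd.3. Cdc42ep4 stood above 50.2% in UV2 and 25.3% in bEnd.3, Cdc42ep2 above 51.7% and 78.9%, and Cdc42ep3 above 53.9% and 68.7%.

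The make-up of the Borg family, as shares of the summed level per kilobase of its 5 genes, differed accordingly. Cdc42ep1 made up 76.1 ± 1.62% of the sum in UV2 and 52.5 ± 1.02% in bEnd.3 (SD, n = 3 each). As shares add up to the whole, this share differed although the level of Cdc42ep1 was nearly the same in both lines. Cdc42ep5, at 0 in UV2, made up 22.6 ± 2.38% in bEnd.3, where it was the second Borg gene. The share of Cdc42ep4 was 7.48 ± 1.01% in UV2 and 1.31 ± 0.116% in bEnd.3, and that of Cdc42ep2 was 7.78 ± 1.94% and 14.2 ± 1.50%. Cdc42ep3 kept a like share, 8.64 ± 0.236% in UV2 and 9.45 ± 1.02% in bEnd.3, with overlapping libraries. The summed Borg level was 132 ± 6.39 CPM per kilobase in UV2 and 207 ± 4.98 in bEnd.3. Set against Cdc42 in the same library, it was 0.691 ± 0.0296 times the level of Cdc42 in UV2 and 1.50 ± 0.178 times in bEnd.3. The sum of the Borg transcripts was therefore below Cdc42 in every UV2 library and above it in every bEnd.3 library. With all annotated exons joined as lengths this order held in every library, but with UV2 close to equality, at 0.966 ± 0.0414 times Cdc42, beside 2.01 ± 0.234 times in bEnd.3 (SD, n = 3 each).

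**Figure D2:**
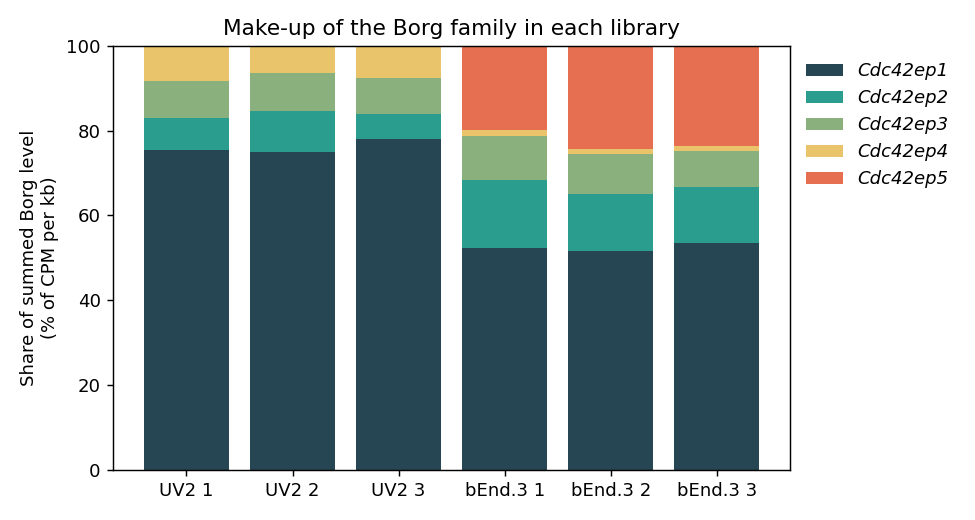
Share of each Borg gene in the summed level per kilobase of the 5 Borg genes (y axis, percent), 1 stacked bar for each UV2 and bEnd.3 library. Cdc42ep1 takes 74.9% to 77.9% of each UV2 bar, and Cdc42ep5 takes 19.8% to 24.3% of each bEnd.3 bar and nothing in UV2.

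The genes that act on Cdc42 or beside it were described from 5 lists of 103 genes, of which 102 have a row in the table, and each was tested in the fit over all genes with edgeR's quasi-likelihood test and Benjamini-Hochberg adjustment. The background is 67.1% of tested genes past the adjusted p, 33.9% higher in UV2 and 33.3% lower. The GEF list had 24 genes, of which 21 were tested, with 7 higher in UV2, 7 lower and 7 short of the threshold, and a median log2 fold change of -0.11. The share past the test was 66.7%, close to the background. The 7 higher and 7 lower of 21 are also near the background shares, so nothing particular to exchange factors is read from them. The alternative settings gave 7 to 8 higher and 7 to 9 lower. The named ones below are the extremes on each side among called genes at 1 CPM or more in the higher line. Of those not tested, Dock10 had 60 counts in UV2 and 0 in bEnd.3, Fgd3 had 9 and 1, and Fgd2 had 1 and 9.

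Fgd4, an exchange factor specific for Cdc42, averaged 10.5 ± 1.91 CPM in UV2 and had 1 count over the 3 bEnd.3 libraries. The ratio of its levels was 798, with a 95% counting interval of 143 to 31547 (adjusted p = 1.56e-06). The fit over all libraries put its difference at 9.17 on the log2 scale. The only bEnd.3 count lay in replicate 3. Leaving that library out put bEnd.3 at 0 counts, and the 10.94 then fitted is not a measured fold. Mcf2l, an exchange factor for Cdc42 and related GTPases, averaged 13.3 ± 2.23 CPM in UV2 and 2.03 ± 0.812 CPM in bEnd.3 (log2 fold change 2.72, SE 0.27, adjusted p = 6.65e-05). Both were high in all 3 UV2 libraries and low in all 3 bEnd.3 libraries. Fgd6, of the same family as Fgd4, averaged 11.6 ± 1.48 CPM in UV2 and 72.5 ± 11.9 CPM in bEnd.3 (log2 fold change -2.65, SE 0.15, adjusted p = 4.14e-06). Dock8, an exchange factor for Cdc42 known for its part in leukocyte migration, averaged 14.8 ± 5.44 CPM in UV2 and 77.4 ± 15.6 CPM in bEnd.3 (log2 fold change -2.38, SE 0.26, adjusted p = 0.000108). The relatives Fgd4 and Fgd6 thus differed in opposite directions.

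The list of GAPs and GDIs had 20 genes, of which 17 were tested. In UV2, 4 of these were higher and 6 lower, and 7 did not pass. The median log2 fold change was -0.12, and the 58.8% past the test are below the background of 67.1%. The highest were the Slit-Robo GAPs Srgap3, at 4.63 ± 2.22 CPM in UV2 and 0.583 ± 0.211 CPM in bEnd.3 (log2 fold change 3.01, SE 0.45, adjusted p = 0.000591), and Srgap1, at 48.5 ± 3.48 CPM and 38.1 ± 1.01 CPM (0.35, SE 0.08, adjusted p = 0.00441). Among the lower genes, Dlc1, a GAP that acts mainly on RhoA, was at 27.8 ± 0.478 CPM in UV2 and 47.8 ± 7.16 CPM in bEnd.3 (log2 fold change -0.78, SE 0.11, adjusted p = 0.000479). The differences of Srgap1 and Dlc1 were small beside that of Srgap3. Arhgap44, under 1 CPM in both lines and so not among the named genes, was also lower in UV2. It had 5 counts in UV2, all in replicate 1, and 58 in bEnd.3 (log2 fold change -3.33, SE 0.76, adjusted p = 0.00533).

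The other effectors of Cdc42 were the list with the largest share past the test, 78.3% of 23 tested genes against the background of 67.1%. In UV2, 11 of the 23 were higher and 7 lower, and 5 did not pass. Their median log2 fold change was 0.27. Diaph3, which was also on this list, was not analysed here. Iqgap2, a scaffold that binds Cdc42 and actin, averaged 4.31 ± 1.14 CPM in UV2 and 0.161 ± 0.0970 CPM in bEnd.3 (log2 fold change 4.63, SE 0.39, adjusted p = 2.89e-05). When bEnd.3 replicate 3 was left out, the fold came to 5.26 on the log2 scale. Iqgap3, of the same family and known to be abundant in dividing cells, went the other way, at 16.3 ± 8.84 CPM in UV2 and 47.9 ± 1.95 CPM in bEnd.3 (log2 fold change -1.56, SE 0.39, adjusted p = 0.00769). Its UV2 libraries were far apart, at 19.4, 23.2 and 6.36 CPM. Pak1, a kinase switched on by Cdc42 and Rac, averaged 43.1 ± 4.65 CPM in UV2 and 14.1 ± 2.35 CPM in bEnd.3 (log2 fold change 1.61, SE 0.14, adjusted p = 3.37e-05). Cdc42bpg, a myotonic dystrophy kinase-related kinase that binds Cdc42, averaged 0.655 ± 0.0553 CPM in UV2 and 1.35 ± 0.0305 CPM in bEnd.3 (log2 fold change -1.04, SE 0.22, adjusted p = 0.00377). Pak1 and Cdc42bpg both carry the CRIB pattern printed above for the Borg genes.

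Of the septins, to which Borg proteins bind, more genes were higher in UV2 than lower. Of 13 septin genes 10 were tested: in UV2, 5 were higher and 1 lower, and 4 did not pass. The median log2 fold change was 0.59, beside -0.01 over all tested genes. The 60% past the test are below the background of 67.1%, and over all tested genes 33.9% were higher and 33.3% lower. The direction of the septins as a set was not tested. Sept4 averaged 41.3 ± 1.26 CPM in UV2 and 11.4 ± 4.92 CPM in bEnd.3 (log2 fold change 1.86, SE 0.26, adjusted p = 0.000386). Sept6 averaged 18.0 ± 3.07 CPM in UV2 and 6.24 ± 1.14 CPM in bEnd.3 (log2 fold change 1.53, SE 0.18, adjusted p = 0.000164). Sept7, which forms a septin group of its own and is the partner shared by septin complexes, was the only one lower, at 262 ± 8.42 CPM in UV2 and 489 ± 38.3 CPM in bEnd.3 (log2 fold change -0.90, SE 0.08, adjusted p = 3.45e-05). The other septins past the test, Sept1, Sept5 and Sept9, are named after their values were seen, and of them Sept9 was at 579 ± 49.6 CPM in UV2 and 270.5 ± 7.22 CPM in bEnd.3 (log2 fold change 1.10). The number of lower septins was 2 when libraries were scaled by total counts or when bEnd.3 replicate 3 was left out.

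Among the other GTPases of the family of Cdc42, 17 of 19 were tested, with 6 higher in UV2, 7 lower and 4 short of the threshold. Their median log2 fold change was -0.03. The 76.5% past the test stand beside the background of 67.1%. Rhou, an atypical GTPase close to Cdc42 in sequence, averaged 31.8 ± 3.73 CPM in UV2 and 1.57 ± 0.857 CPM in bEnd.3 (log2 fold change 4.37, SE 0.30, adjusted p = 1.03e-05). Rhoh, known from blood cells, averaged 1.11 ± 0.254 CPM in UV2 and had 0 counts in bEnd.3, at least 28.2-fold higher in UV2 against a floor of 3 counts over the 3 bEnd.3 libraries (adjusted p = 0.000275). Both were higher in each UV2 library than in any bEnd.3 library. Rnd3, which opposes RhoA signalling, averaged 4.00 ± 0.101 CPM in UV2 and 29.9 ± 5.26 CPM in bEnd.3 (log2 fold change -2.90, SE 0.15, adjusted p = 2.56e-06). Rhob, a GTPase of endosomes, averaged 93.0 ± 13.4 CPM in UV2 and 194.7 ± 42.1 CPM in bEnd.3 (log2 fold change -1.07, SE 0.17, adjusted p = 0.000747). Beside these, the log2 fold change of Cdc42 itself was 0.46.

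**Figure D3:**
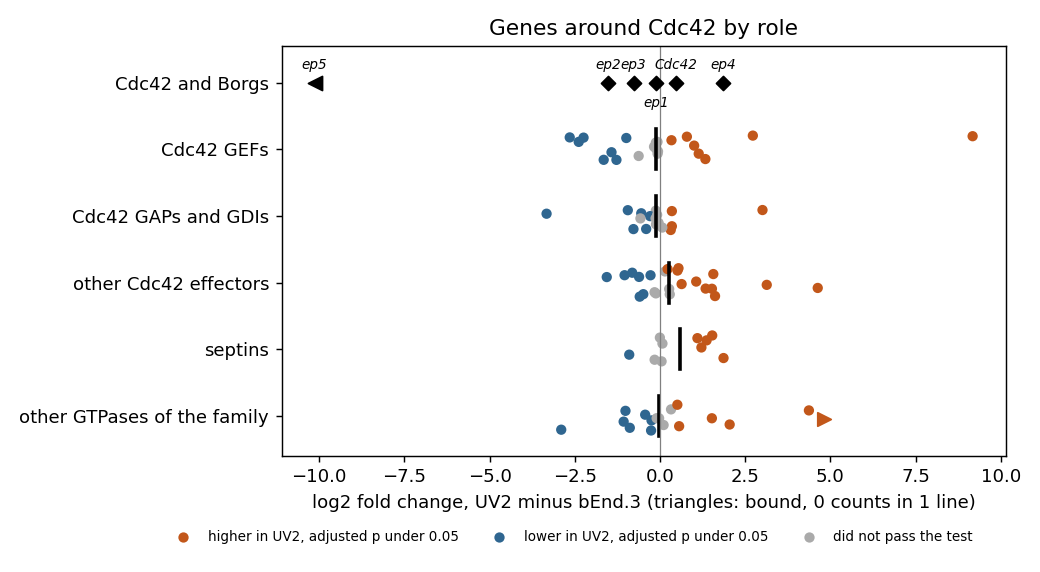
Log2 fold change, UV2 minus bEnd.3 (x axis), of each tested gene of the members and of the 5 lists around Cdc42 (rows), with list genes coloured by call, members in black, list medians as vertical bars, and triangles for bounds of genes at 0 counts in a line. Points lie on both sides of 0 in every list, with 5 septins above 0 past the test and Sept7 below.

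The genes whose pattern over the 6 libraries was most like that of each member were found by the root mean square difference of log2(CPM + 0.5), each gene centred on its mean, among 11548 tested genes. Most genes differ between the lines, so nearness by this measure depends largely on that difference, which the added 0.5 makes smaller for genes with few counts. Likeness over 6 libraries says nothing of function. Nearest to Cdc42 were Ubqln1, at a distance of 0.0252, and Ddx28, at 0.0283, and nearest to Cdc42ep1 were Ptpn14, at 0.0177, and Rab3gap2, at 0.0213. These members had many genes about as near: 389 lay within 0.1 of Cdc42 and 1027 within 0.1 of Cdc42ep1. Nearest to Cdc42ep3 were Ndufs3, at 0.0352, and Ptpn18, at 0.0422, with 106 genes within 0.1.

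The other members had fewer neighbours. Nearest to Cdc42ep4 were Gfra1, at 0.0449, and Creb3l2, at 0.0456, with 11 genes within 0.1. Gfra1 had 99 counts over the UV2 libraries and 3 over the bEnd.3 libraries, a ratio of 35.9 with a 95% counting interval of 11.9 to 177, so its fold was not that of Cdc42ep4. Creb3l2, a membrane-bound transcription factor, averaged 212 ± 16.1 CPM in UV2 and 61.4 ± 6.37 CPM in bEnd.3. No gene lay within 0.1 of Cdc42ep2: the nearest were the receptor gene Gpr35, at 0.101 and with only 28 counts over the UV2 libraries, and Flt1, at 0.142. The fitted log2 fold change of Gpr35 was -2.33, beside -1.51 for Cdc42ep2. Flt1, a receptor for vascular endothelial growth factor, averaged 43.7 ± 11.0 CPM in UV2 and 148 ± 14.8 CPM in bEnd.3. Nearest to Cdc42ep5 were the Y chromosome genes Kdm5d, at 0.0880 and with 2 counts over the UV2 libraries, and Uty, at 0.104 and with 1 count. Kdm5d averaged 48.0 ± 3.12 CPM and Uty 45.7 ± 1.68 CPM in bEnd.3. Cdc42ep5 itself lies on chromosome 7.

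The tested genes within 1 Mb of each member showed whether its difference was shared by its neighbourhood. Around Cdc42 on chromosome 4, 13 of 17 tested genes were higher in UV2 and none was lower, beside 33.9% higher and 33.3% lower over all tested genes. The median log2 fold change of this window was 1.02, above the 0.46 of Cdc42 and the 0.25 of all tested genes on chromosome 4. Cdc42 therefore lay in a stretch where most genes were higher in UV2, and its own difference was below the median of that stretch. Around Cdc42ep1 on chromosome 15, 25 of 46 genes were higher and 8 were lower, with a median of 0.34, while Cdc42ep1 itself was at -0.12. All tested genes of chromosome 15 had a median of 0.50.

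The windows of the other members had medians nearer 0. The median log2 fold change was -0.04 over 73 tested genes around Cdc42ep2, 0.02 over 22 around Cdc42ep3 and -0.22 over 8 around Cdc42ep4, against members at -1.51, -0.78 and 1.86. Only 1 of the 8 genes around Cdc42ep4 was higher in UV2 and 4 were lower, beside 33.9% and 33.3% of all tested genes. The higher gene, Sstr2, had a log2 fold change of 2.18, larger than that of Cdc42ep4, and is named after its value was seen. Cdc42ep4 thus went against the median of its window but not against every gene in it. Around Cdc42ep5, 13 of 45 tested genes were higher and 10 were lower, with a median of 0.00. In that window 5 of 45 genes, 11.1%, were more than 8-fold lower in UV2, beside 3.71% of all tested genes. On the same measure 1 of the 8 genes around Cdc42ep4 (12.5%) and 1 of the 73 around Cdc42ep2 (1.37%) were that much lower, and none was around the other members. Of the 5 around Cdc42ep5, Ttyh1 and D030047H15Rik overlap and may share reads. For Rasl2-9, also of the 5, the 95% counting interval starts at 5.41-fold, below 8-fold. Syt5, Lair1, Rasl2-9 and D030047H15Rik had 0, 2, 2 and 3 counts over the UV2 libraries. They passed the filter on low counts through bEnd.3 alone, so nothing is read from the share of 11.1%.

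**Figure D4:**
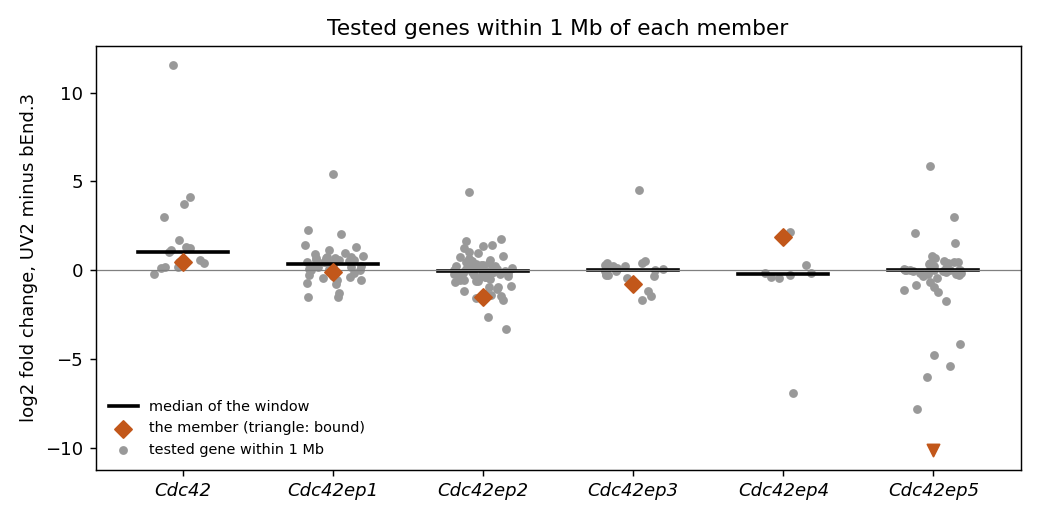
Log2 fold change, UV2 minus bEnd.3 (y axis), of every tested gene within 1 Mb of each member (x axis, grey points), with the window's median as a line and the member as a diamond, or as a triangle for the bound of Cdc42ep5. The window of Cdc42 lies mostly above 0, with a median of 1.02, and that of Cdc42ep5 is centred on 0 with 5 genes far below and Cacng7 far above, at 5.86.

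The genes next to Cdc42ep5 at lower coordinates were expressed in both lines. The nearest gene at lower coordinates, Leng9, lies 1.39 kb away and averaged 5.06 ± 1.10 CPM in UV2 and 6.39 ± 0.728 CPM in bEnd.3 (log2 fold change -0.33, SE 0.19, adjusted p = 0.145). Leng8, the next, lies 3.08 kb away and averaged 195 ± 25.2 CPM in UV2 and 216 ± 46.6 CPM in bEnd.3 (log2 fold change -0.14, SE 0.16, adjusted p = 0.465). Neither passed the test, and both were measured in every UV2 library. The nearest gene at higher coordinates, Lilra5, lies 72.8 kb away and had 1 count over the UV2 libraries and 0 in bEnd.3, too few to test.

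The strongly lower genes of this window, and the strongly higher ones, were chosen after their values were seen. Ttyh1, an anion channel gene at chr7:4119530-4135407, 15.9 kb from Cdc42ep5 and beyond Leng8 and Leng9, averaged 1.93 ± 0.166 CPM in UV2 and 428 ± 66.6 CPM in bEnd.3 (log2 fold change -7.79, SE 0.16, adjusted p = 5.56e-08). The overlapping transcript D030047H15Rik had 3 counts in UV2 and 100 in bEnd.3, a ratio of 30.7 in favour of bEnd.3 with a 95% counting interval of 10.2 to 151. Since the strand setting was not given in the sources used here, reads of these 2 overlapping genes may not be separable. Lair1, 77.7 kb away, had 2 counts in UV2 and 108 in bEnd.3, a ratio of 49.7 with an interval of 13.4 to 416. Syt5, 374.9 kb away on the other side, had 0 counts in UV2 and averaged 2.74 ± 0.352 CPM in bEnd.3, at least 64.1-fold lower in UV2. Rasl2-9, 960 kb away, had 2 counts in UV2 and 45 in bEnd.3, a ratio of 20.7 with an interval of 5.41 to 176. Leng8 and Leng9, neither of them past the test, thus lay between Cdc42ep5 and Ttyh1, which were far lower in UV2. In the other direction, Cacng7, 783 kb away, had 74 counts in UV2 and 1 in bEnd.3, a ratio of 80.4 with an interval of 14.0 to 3219. Nlrp12, 901 kb away, averaged 2.15 ± 0.848 CPM in UV2 and 0.264 ± 0.165 CPM in bEnd.3 (log2 fold change 3.00, SE 0.50, adjusted p = 0.00104).

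**Figure D5:**
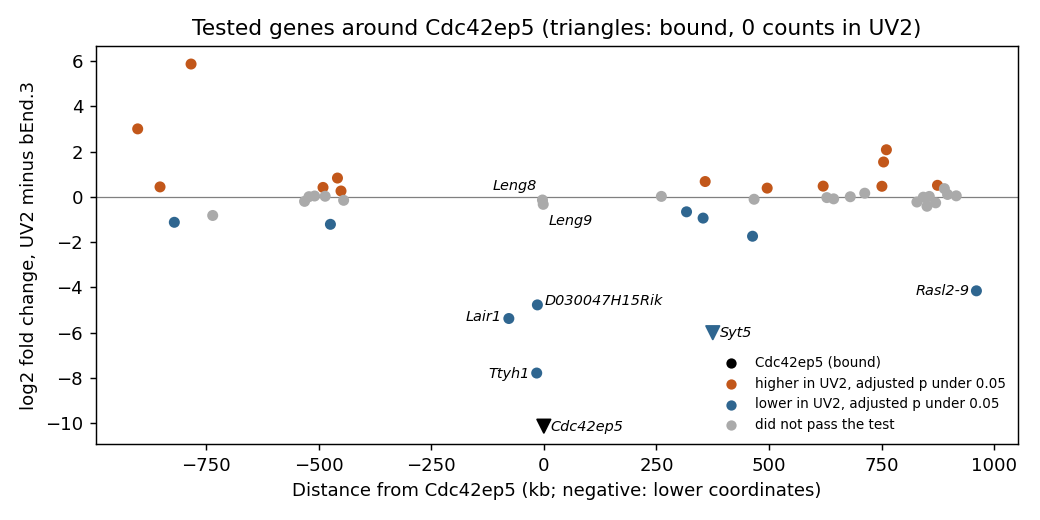
Log2 fold change, UV2 minus bEnd.3 (y axis), of tested genes by distance from Cdc42ep5 (x axis, kb, negative for lower coordinates), coloured by call, with triangles for bounds of genes at 0 counts in UV2. Cdc42ep5 and Ttyh1 lie far below 0, at a bound of -10.13 and at -7.79, with Leng8 and Leng9 near 0 between them.

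The start of Cdc42ep5 is printed because this is the member at 0 in UV2 and because its sequence differs from those of the other members in its number of CG dinucleotides. The window runs from 250 bases before the start to 50 after it, chr7:4164656-4164955 on the minus strand (RefSeq, GRCm38.p6), 5′ to 3′, with CG in capitals. The transcript start that this window was cut around lies inside the gene's outer end at 4164831 given above, so the window is not that of the outermost annotated start.
Cdc42ep5: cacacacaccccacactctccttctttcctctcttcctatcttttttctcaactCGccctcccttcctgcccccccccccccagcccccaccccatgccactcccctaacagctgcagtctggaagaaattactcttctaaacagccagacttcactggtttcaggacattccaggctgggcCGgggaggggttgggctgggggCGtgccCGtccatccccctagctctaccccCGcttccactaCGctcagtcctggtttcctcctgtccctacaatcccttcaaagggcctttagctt
The motif searched was CG, which reads the same on both strands. The window of Cdc42ep5 held 6, that of Cdc42 held 22, and those of Cdc42ep1, Cdc42ep2 and Cdc42ep3 held 40, 17 and 27. The 2 windows of Cdc42ep4, whose starts also lie inside the gene's outer end, held 18 and 24. Over 32851 windows of this length the median was 7, with quartiles of 3 and 20, and 47.9% of windows held 6 or fewer. The window of Cdc42ep5 thus had a usual number among these windows and the fewest of the 6 members. That of Cdc42ep1 had more than most, with 96.5% of windows at 40 or fewer. These counts describe sequence only: neither methylation nor the binding of any factor was measured.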

How the data were processed

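Poly(A) RNA of trypsin-detached cells was made into libraries with a stranded mRNA kit, per the labels' protocols. Reads were processed with Trim Galore, STAR and RSEM on mm10, per the submitters' processing notes. Their versions, the annotation and the strand setting were not given in the sources used here. Since mm10 is of C57BL/6, reads of a BALB/c genome can map less well to it. The authors deposited RSEM expected counts per gene, not normalized, with totals of 21306441 to 28748128 per library. All 36 values of the 6 members were whole (tolerance 1e-06).

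Expected counts were rounded and filtered with filterByExpr, which left 12720 of 24411 genes. They were scaled by TMM (factors 0.969 to 0.995 in UV2 and 1.016 to 1.027 in bEnd.3) and fitted in edgeR (quasi-likelihood test), with the line as the sole term. Adjusted p-values are Benjamini-Hochberg values over the 12720 genes, and a call is an adjusted p under 0.05. The biological coefficient of variation was 0.124. The members, lists and tests were chosen with earlier results of these data known. Levels are TMM-scaled CPM. Named list genes were the 2 highest and 2 lowest called genes of a list, given 1 CPM or more in the higher line. Named profile genes were the 2 nearest to each member with at least 1 CPM in either line. Of the list genes so named, 1 is not reported here. Predicted genes, clones and mitochondrial genes were left out of the profile search. For Cdc42ep5, the nearest gene on each side was named. Transcript lengths and coding sequences came from GENCODE M21, and gene positions and promoter windows from RefSeq (GRCm38.p6), which matched 99.7% of tested genes by symbol and all 6 members. Protein identity was taken from global alignments of the translated coding sequences.

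The replicate numbers of the titles were checked for pairing. Over genes, deviations from the line means correlated between same-numbered libraries at 0.116, 0.210 and 0.257 for replicates 1, 2 and 3. The highest correlations with a library of another number were -0.044, 0.078 and -0.077. The number was therefore treated as pairing the libraries in an alternative fit, while the main fit did not use it. Counts of libraries of a line differed by a chi-square of 11.7 to 40.2 per degree of freedom, and none was treated as a duplicate. The alternatives tried were DESeq2's size factors, scaling by total counts, leaving out the filter, requiring 1 CPM in 3 libraries, the replicate block, DESeq2, limma-voom, leaving out each library, subtraction of the chromosome's median log2 fold change, and TPM over genes with a length. Exon-joined lengths were added after seeing the data. Software was Python 3.11.15 with Biopython 1.88 and matplotlib 3.10.9, and R 4.3.3 with DESeq2 1.42.0, limma 3.58.1 and edgeR 4.0.16.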

Additional observations from a re-analysis of the deposited data

How the results depend on the processing

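No member and no named list gene changed direction under the alternatives run for it. The chromosome median was subtracted for Cdc42 and Cdc42ep1 to Cdc42ep4 only, the bound of Cdc42ep5 was recomputed only for the scalings and the left-out libraries, and Rhoh gave no value under the 1 CPM filter. With the chromosome's median log2 fold change subtracted, Cdc42 was at 0.21, Cdc42ep1 at -0.62 and Cdc42ep4 at 1.99. With total counts, Cdc42ep1 was at -0.18, 2 septins were lower, and the list of GAPs and GDIs had 3 higher and 8 lower. In that setting 6 members instead of 5 were past the adjusted p, Cdc42ep1 included, beside 8634 of 12720 tested genes. Nothing is read from that count, since the family was chosen on this contrast. The median log2 fold change of all tested genes was then -0.08, and 45.4% of called genes were higher in UV2, beside 50.4%. Leaving out a library gave 0.39 to 0.52 for Cdc42, -0.14 to -0.08 for Cdc42ep1, -1.76 to -1.33 for Cdc42ep2, -0.84 to -0.71 for Cdc42ep3 and 1.80 to 1.93 for Cdc42ep4. The bound of Cdc42ep5 ran from -10.22 to -9.46, nearer 0 without a UV2 library because the floor then rests on 2 libraries, and 1 to 2 septins were lower. The cause of the other shifts was not tested. The replicate block called 8682 genes, beside 8538, and changed no call of a member or named list gene. Called genes numbered 8354 with DESeq2, 8586 with limma-voom, 9041 with no filter, 8094 with the 1 CPM filter, and 7793 to 8742 with a library left out. The order per kilobase kept every rank in TPM, and with exon-joined lengths only Cdc42 and Cdc42ep1 exchanged ranks, in bEnd.3. Depth limits Cdc42ep5 in UV2 to a bound.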
